A study of Mus musculus with 4 samples.

Results

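Imprinted genes, which are expressed from only the maternal or only the paternal chromosome, were examined for binding of Tfcp2l1 in mouse embryonic stem cells. Tfcp2l1 belongs to the CP2 family of DNA-binding proteins and acts in naive pluripotency. A list of 38 imprinted genes was placed on the GRCm38.p6 RefSeq gene table, where all 38 were found, and was grouped by neighbourhood into 18 clusters, 8 with several genes and 10 with 1 gene. Peak positions were read as GRCm38, which they match, although the submitters' processing notes name mm9. A peak was assigned to a gene when its summit lay inside the gene or within 10 kb of an end. The windows held 116 of the 57614 peaks of repeat 1 and 107 of the 51610 peaks of repeat 2, and 90 of the 43851 peaks of repeat 1 that overlapped a peak of repeat 2. Those overlapping peaks are called shared.

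The cells were wild-type embryonic stem cells without treatment, in serum-free medium with N2 and B27 supplements, 1000 units/mL LIF, 3 µM CHIR99021 (a GSK3 inhibitor) and 1 µM PD0325901 (a MEK inhibitor), which all 4 libraries had in common. Each of 2 repeats had 1 library immunoprecipitated with an antibody against Tfcp2l1 and 1 input library of chromatin that was not immunoprecipitated. The labels do not say whether the repeats were separate cultures, so differences between them may be technical. Filtered ChIP libraries held 19353473 tags in repeat 1 and 22555373 in repeat 2. With 1 peak list per repeat, no test across samples was possible, and pairs of values below are repeat 1 followed by repeat 2. Fold enrichment is the authors' value for each peak, the height of the ChIP signal over the background that the peak caller estimated locally. Tags are the unnormalized ChIP tags of a peak. The lists hold no expression and do not separate the parental alleles. Shared peaks lay in or near the stem cell genes Pou5f1 (5), Nanog (5), Esrrb (21), Klf4 (3), Zfp42 (3) and Tfcp2l1 (8), and near Col1a1 (3) but not Col1a2, Col3a1, Thy1 or Vim of feeder fibroblasts. Of all protein-coding genes, 64.5% had a shared peak inside or within 10 kb, and such peaks do not show which cells were present.

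Imprinted genes lie in clusters in which an imprinting control region, methylated on 1 parental chromosome, directs which genes of the cluster are active. Several clusters make a long noncoding RNA, such as Airn or Kcnq1ot1, that silences neighbours on the same chromosome, while in the H19 and Igf2 cluster the insulator protein CTCF decides which gene the shared enhancers reach. In embryonic stem cells the methylation marks are known to be kept by Zfp57 with its partner Trim28, and they can be eroded in culture.

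Promoters of the 5 genes whose shared summit lay nearest to a gene end, among genes with a promoter sequence, are shown because the summit fell at or just beside the start of the gene. Each window covers 250 bases before and 50 after a RefSeq start site (GRCm38.p6), 5′ to 3′ on the strand of the gene. Capitals mark matches on either strand to a motif of the CP2 type, which is CCNG, any 6 bases and CCNG again.
Kcnq1ot1, chr7:143296498-143296797, minus strand: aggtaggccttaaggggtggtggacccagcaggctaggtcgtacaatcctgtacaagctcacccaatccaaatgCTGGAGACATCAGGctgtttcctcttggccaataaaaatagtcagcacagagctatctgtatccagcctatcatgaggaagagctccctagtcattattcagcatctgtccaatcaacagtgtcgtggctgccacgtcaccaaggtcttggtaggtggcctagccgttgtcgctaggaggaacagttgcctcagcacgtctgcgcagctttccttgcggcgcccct
Dio3, chr12:110278980-110279279, plus strand: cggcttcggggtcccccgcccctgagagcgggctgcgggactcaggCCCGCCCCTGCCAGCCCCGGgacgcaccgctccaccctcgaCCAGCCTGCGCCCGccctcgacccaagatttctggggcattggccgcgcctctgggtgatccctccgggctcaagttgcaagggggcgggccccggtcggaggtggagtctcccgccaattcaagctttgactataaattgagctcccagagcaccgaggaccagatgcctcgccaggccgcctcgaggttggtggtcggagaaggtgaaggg
Slc22a18, chr7:143473539-143473838, plus strand: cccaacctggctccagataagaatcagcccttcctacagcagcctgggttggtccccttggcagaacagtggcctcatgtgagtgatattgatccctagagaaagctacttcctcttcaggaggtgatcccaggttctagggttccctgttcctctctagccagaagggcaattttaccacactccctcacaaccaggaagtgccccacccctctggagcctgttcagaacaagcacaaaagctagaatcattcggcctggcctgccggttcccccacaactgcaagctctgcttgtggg
Zdbf2, chr1:63200108-63200407, plus strand: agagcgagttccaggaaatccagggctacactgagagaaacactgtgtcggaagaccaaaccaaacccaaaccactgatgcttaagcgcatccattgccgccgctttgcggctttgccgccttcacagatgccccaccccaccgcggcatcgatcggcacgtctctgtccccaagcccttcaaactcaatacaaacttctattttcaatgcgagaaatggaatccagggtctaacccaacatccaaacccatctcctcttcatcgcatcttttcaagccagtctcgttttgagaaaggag
Magel2, chr7:62376729-62377028, plus strand: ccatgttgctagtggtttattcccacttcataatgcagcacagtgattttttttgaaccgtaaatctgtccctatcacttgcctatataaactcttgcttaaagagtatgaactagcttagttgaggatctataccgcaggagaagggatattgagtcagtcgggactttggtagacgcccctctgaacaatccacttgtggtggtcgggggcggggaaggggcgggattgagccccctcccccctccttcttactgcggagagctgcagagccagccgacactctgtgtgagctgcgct
The repeat 1 summit lay 4 bp before the Kcnq1ot1 start site, 104 bp before that of Dio3, and 67, 158 and 306 bp after those of Slc22a18, Zdbf2 and Magel2. The Kcnq1ot1 window held 1 match, 176 bases before the start site, and the Dio3 window held 3, of which the first and the next overlap. The other three windows held none.

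For comparison, promoters of a gene without a peak in either repeat, Ndn, and of a gene with peaks only of single repeats, Igf2r, read as follows.
Ndn, chr7:62348027-62348326, plus strand: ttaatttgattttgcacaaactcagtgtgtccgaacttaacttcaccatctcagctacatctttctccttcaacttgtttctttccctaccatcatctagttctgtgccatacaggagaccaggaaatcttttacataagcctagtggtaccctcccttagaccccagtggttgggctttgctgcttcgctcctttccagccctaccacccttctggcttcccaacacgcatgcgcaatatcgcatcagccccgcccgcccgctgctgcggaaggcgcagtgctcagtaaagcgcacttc
Igf2r, chr17:12769657-12769956, minus strand: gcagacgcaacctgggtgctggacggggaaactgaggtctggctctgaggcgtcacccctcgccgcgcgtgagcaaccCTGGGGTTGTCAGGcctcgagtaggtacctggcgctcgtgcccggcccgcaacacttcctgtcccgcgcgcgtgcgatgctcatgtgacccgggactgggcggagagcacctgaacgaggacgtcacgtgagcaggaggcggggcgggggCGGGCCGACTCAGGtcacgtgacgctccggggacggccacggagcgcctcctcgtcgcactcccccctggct
The Ndn window had no match and the Igf2r window had 2. Windows with and without a match were thus found both beside a shared summit and away from one. A peak of repeat 1 alone (5.56-fold, 24 tags) covered the Igf2r window, so that window was not free of called peaks. The GC content of the windows shown was 53.3% at Kcnq1ot1, 69.0% at Dio3, 54.7% at Slc22a18, 51.3% at Zdbf2, 51.0% at Magel2 and Ndn, and 70.7% at Igf2r. The windows with a match to the CP2 type were thus those of Dio3 and Igf2r, the richest in GC, and that of Kcnq1ot1. Of the 38 genes, 28 had promoter entries, 43 in all. The motif was in 15 of the 43 (34.9%), against 29.5% of all 32851 entries. Of the 10 member entries overlapped by a shared peak 4 held it, and of the 33 others 11. Entries of 1 gene can overlap: 2 of those 4 at Gnas and 2 of those 11 at Mest hold the same match, and the same Mest entries count separately for the next motif. Over the whole table, entries were split by holding a shared summit, which is narrower than overlap with a peak. Of the 2213 entries that held a summit 54.8% had the motif, against 27.7% of the rest. Only 2 member entries, those of Kcnq1ot1 and Dio3, held a summit, and both had the motif. The hexamer TGCCGC, the core of the sequence that Zfp57 binds when methylated, was in 11 of the 43 member entries (25.6%) and in 11.6% of all entries, counting both strands. The Zdbf2 window shown held it 3 times, and the other six windows shown did not hold it. A match describes the letters of a window and does not show a site, and matches to both motifs can overlap.

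Shared peaks were found at 30 of the 38 imprinted genes (78.9%, exact 95% binomial interval 62.7% to 90.4%), where 64.5% of all 21883 protein-coding genes had one by the same rule. Counting the 33 protein-coding members alone gave 26 with a shared peak. Of the 5 long noncoding RNA genes, H19, Airn, Kcnq1ot1 and Meg3 had one and Peg13 had none, against 50.3% of 12727 long noncoding RNA genes. On chromosome 7 14 of 18 members had a shared peak (background 59.3%). In 17 of the 18 clusters at least 1 gene had a shared peak, the exception being Mest. Clusters of several genes cover more sequence than a single gene, and no background share was computed for such groups. With 1 repeat at a time, 34 and 33 of the 38 genes had a peak (background 71.3% and 68.1%). Asking for at least 10-fold enrichment in both repeats left 25 genes (background 50.0%). The interval, which treats genes as independent although neighbours can hold the same peak, includes the background share.

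In the background, longer genes more often had a shared peak. Of the 11 members under 5 kb 7 had a shared peak (63.6%, background 37.5%), of the 4 members of 5 to 20 kb 2 (50%, background 65.4%), of the 15 members of 20 to 100 kb 13 (86.7%, background 75.2%), and all 8 members of 100 kb or more (background 84.5%). The short genes with a shared peak were H19, Ascl2, Phlda2, Dio3, Magel2, Peg12 and Nnat. These classes hold few members, and the difference from the background within them was not tested. Per Mb of merged windows there were 26.9 shared peaks at imprinted genes and 25.0 at protein-coding genes.

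**Figure D1:**
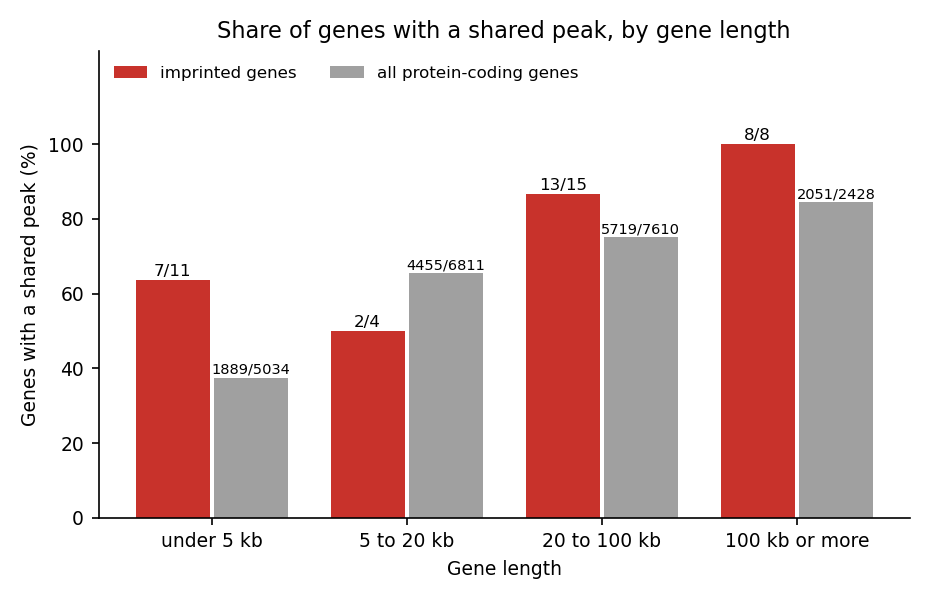
Share of genes with a shared Tfcp2l1 peak (y axis, percent) by gene length (x axis) for the 38 imprinted genes (red, 5 of them long noncoding RNA genes) and all protein-coding genes of the same length (grey), with counts above the bars. The imprinted genes stood above the grey bars in 3 length classes (7 of 11, 13 of 15 and 8 of 8) and below in that of 5 to 20 kb (2 of 4).

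The genes were unequal in how many sites they held. Usp29 had 9 shared peaks, Gnas 8, Commd1, Zdbf2 and Trappc9 7 each, Slc22a18 and Sgce 6 each, and Kcnq1 and Impact 5 each. A single shared peak was found at each of 8 genes, namely Ascl2, Kcnq1ot1, Dlk1, Rtl1, Zim1, Ube3a, Peg12 and Nnat. The median was 2 per imprinted gene and 1 per protein-coding gene. Windows overlap where genes are close, so the 90 peaks are fewer than the sum over genes: peaks at Kcnq1ot1 also count for Kcnq1, those at Peg10 for Sgce, those at Peg3 for Usp29, and those at Phlda2 for Slc22a18.

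**Figure D2:**
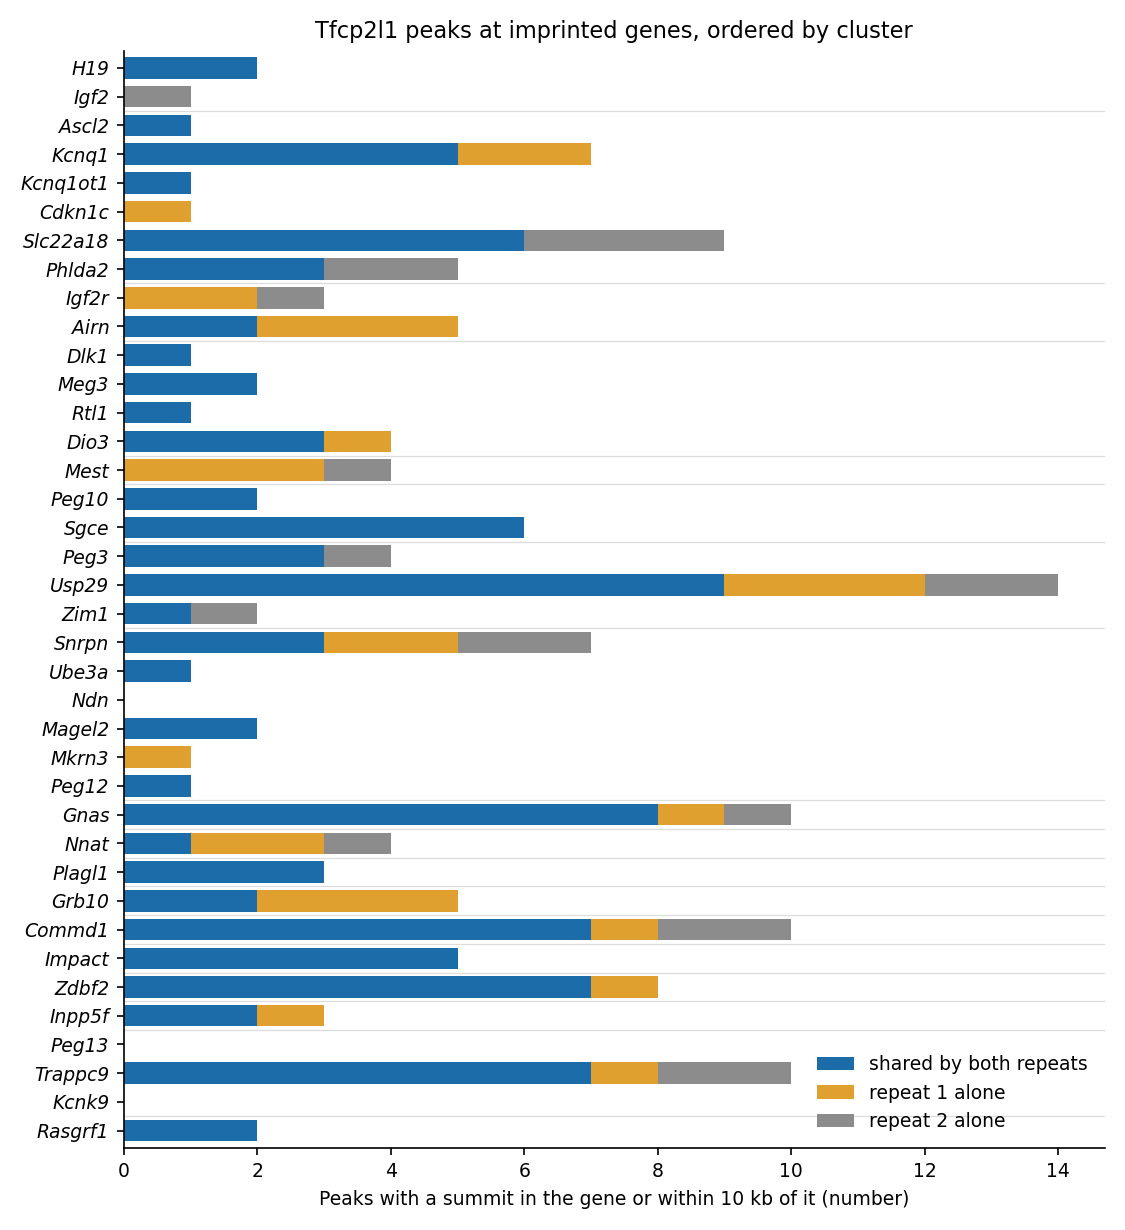
Number of peaks (x axis) with a summit in each of the 38 imprinted genes or within 10 kb of it, in cluster order with grey lines between clusters. Blue bars are peaks shared by both repeats, orange repeat 1 alone and grey repeat 2 alone. Usp29 had the longest blue bar (9), and Ndn, Peg13 and Kcnk9 have no bar.

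Enrichment at the imprinted genes ran from weak to strong sites. The 90 shared peaks had a median of 14.4-fold and 10.8-fold, against 15.5-fold and 11.8-fold over all shared peaks. They ran from 5.31-fold to 166-fold in repeat 1 and from 5.0-fold to 95.3-fold in repeat 2. Strength is ranked below by the mean rank of fold enrichment over both repeats unless a repeat is named. Median tags were 58 and 55.5, against 58 and 56. In each repeat 9 of the 90 (10.0%) were in the strongest 10% of all shared peaks, above 51.2-fold and 36.0-fold, and 5 were so in both, where 7.49% of all shared peaks were. The medians thus lay slightly below those of all shared peaks in both repeats. Enrichment was higher in repeat 1 at 69 of the 90 (76.7%), as at 77.5% of all shared peaks, and the median ratio of repeat 1 to repeat 2 was 1.32, against 1.31. Summits of the 2 repeats lay within 100 bp of each other at 81 of the 90 (90%), and at 88.3% of all shared peaks. Across these 90 regions, which share the same 2 pairs of libraries, the fold values of both repeats gave a Spearman's rho of 0.771, against 0.799 over all shared peaks, and their log2 values a Pearson's r of 0.812.

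**Figure D3:**
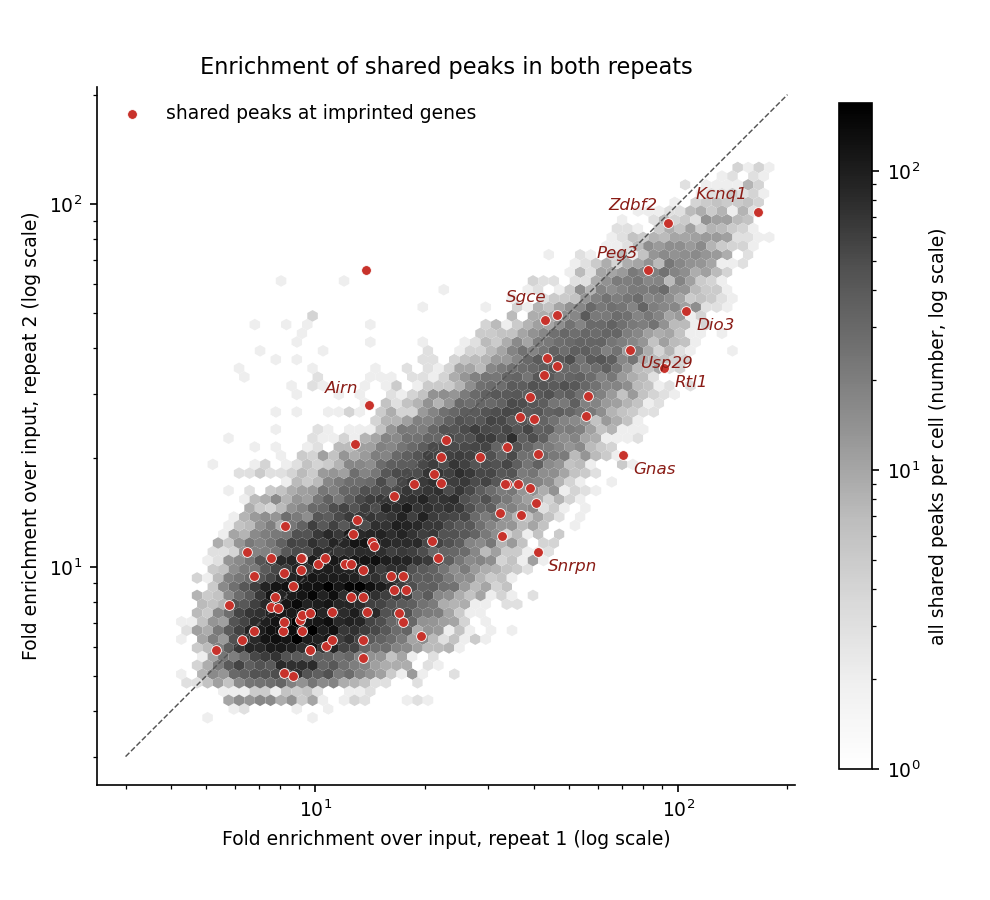
Fold enrichment over input in repeat 1 (x axis) and repeat 2 (y axis), both on log scales, for all shared peaks (grey cells, darker for more peaks) and the 90 at imprinted genes (red points), with the dashed line marking equal values. The red points spread over most of the grey cloud but not its upper tip, and of them the peak in Kcnq1 is farthest right (166-fold and 95.3-fold); the red point at 13.8-fold and 65.5-fold is a small repeat 1 peak in Peg3 matched to a long repeat 2 peak.

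The strongest site of all imprinted genes lay in the Kcnq1ot1 cluster on chromosome 7. It was inside Kcnq1, a potassium channel gene, 17.7 kb from an end (chr7:143123735-143125550), with 166-fold and 95.3-fold enrichment and 604 and 568 tags. Weaker sites next to it, at chr7:143122151-143123050 (36.8-fold and 13.9-fold) and chr7:143119911-143121005 (7.57-fold and 10.6-fold), made a group of 3 between 13.6 kb and 17.7 kb from that end. Kcnq1 also hosts the antisense RNA gene Kcnq1ot1, whose start site is known to lie in the imprinting control region of this cluster. The peak across that start site was of middle strength (chr7:143296044-143297387, 17.0-fold and 7.46-fold, 92 and 55 tags), the shared summit nearest to an end of any imprinted gene. A further site inside Kcnq1 lay at chr7:143353002-143353949 (22.2-fold and 20.01-fold).

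Genes of the same cluster that are silenced on the paternal chromosome differed in their sites. Ascl2, a transcription factor gene needed in the placenta, had 1 shared peak inside it (36.2-fold and 16.9-fold, 173 and 88 tags). The placental growth inhibitor gene Phlda2 had 3 within 10 kb, all of which also lay in the window of Slc22a18, the strongest 2.96 kb from an end (chr7:143505512-143506692, 41.2-fold and 20.4-fold). Slc22a18, a transporter gene, had 6, of which that beside its start site had 9.16-fold and 10.6-fold. By contrast, Cdkn1c, which encodes the cell cycle inhibitor p57, had only a repeat 1 peak (8.38-fold, 25 tags), and the nearest shared peak was 11.9 kb away (chr7:143445657-143447013, 20.3-fold and 21.98-fold), just beyond the window. Over the whole cluster of 556 kb there were 23 shared peaks, or 41.3 per Mb. The density was 19.4 per Mb over chromosome 7 and 27.4 per Mb in windows of its protein-coding genes. Of the 23 peaks, 11 lay outside the gene windows. The strongest of those 11 was at chr7:143007047-143008232 (62.3-fold and 59.7-fold), inside Tspan32, which lies between Ascl2 and Kcnq1.

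The Peg3 cluster, also on chromosome 7, had its strongest sites within a few kb of the starts of a pair of divergent genes. Peg3, which encodes a zinc finger protein and is expressed from the paternal chromosome, and the ubiquitin protease gene Usp29 start 164 bp apart in opposite directions. A peak inside Peg3, 3.00 kb past its start site (chr7:6726909-6728929), had 82.6-fold and 65.5-fold enrichment and 373 and 498 tags. A peak on the other side, 551 bp past the start site of Usp29 (chr7:6730570-6731500), had 73.4-fold and 39.6-fold and 196 and 159 tags, with the summit at the same base in both repeats. Between them repeat 1 had another, smaller peak (13.8-fold, 40 tags), whose match in repeat 2 was the long peak of the first. The region around the start sites is known to carry the methylation mark of this cluster. Usp29 had further shared sites up to 222 kb from its start site, the strongest at chr7:6776739-6777892 (40.1-fold and 25.5-fold). Zim1, a maternally expressed neighbour, had 1 weak shared peak (8.17-fold and 6.67-fold, 34 and 19 tags).

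The Dlk1-Dio3 cluster on chromosome 12 had shared peaks at all 4 listed genes. Dlk1, a paternally expressed gene of a Notch-related protein, had 1 shared peak 2.90 kb outside an end (22.9-fold and 22.4-fold, 88 and 89 tags). The maternally expressed noncoding RNA gene Meg3 had 2, one 8.74 kb outside an end (9.66-fold and 5.89-fold) and one inside it (16.2-fold and 9.42-fold). Rtl1, a retrotransposon-derived gene, had 1, 3.75 kb beyond an end (chr12:109607533-109608479, 91.3-fold and 35.3-fold, 235 and 139 tags). Dio3, which encodes a deiodinase that inactivates thyroid hormone, had 3: one beside its start site (12.6-fold and 8.24-fold), one inside it (36.7-fold and 25.9-fold) and one 4.88 kb past the start site (chr12:110283523-110285519, 105-fold and 50.6-fold, 376 and 298 tags). Of these 3 the one farthest from the start site was the strongest in both repeats. A further peak outside Dio3 was called in repeat 1 alone (13.04-fold, 36 tags).

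Sites also lay between these genes. The cluster spans 849 kb and held 26 shared peaks, 19 of them outside the gene windows, which leave most of the interval uncovered. The strongest of all was one of these, at chr12:109880806-109882049 (110-fold and 82.8-fold, 333 and 322 tags). Another lay at chr12:109971759-109974046 (42.5-fold and 41.1-fold). A site 11.1 kb from Meg3 (33.8-fold and 19.2-fold) was just outside its window and stronger than those within it.

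**Figure D4:**
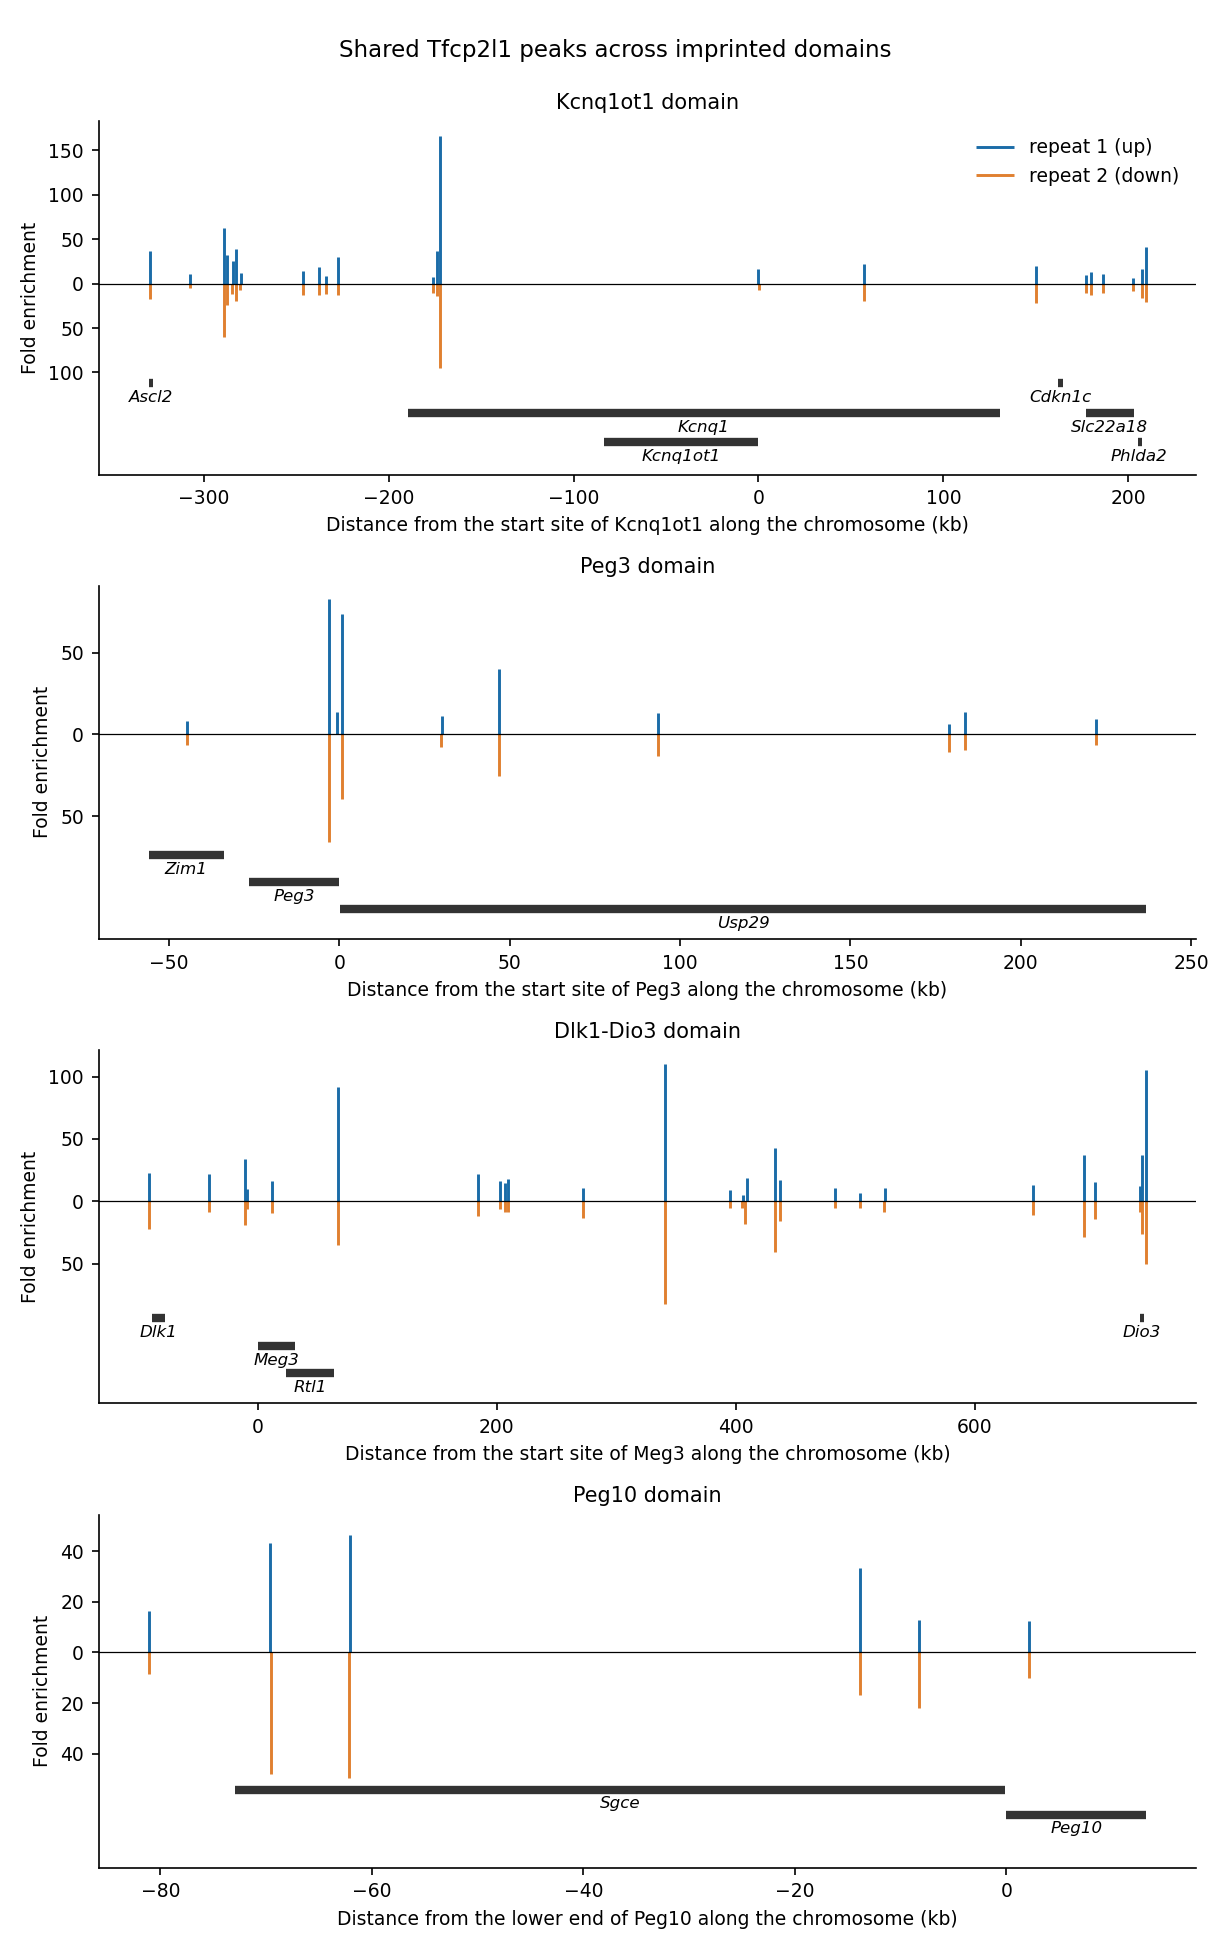
Shared peaks across 4 imprinted clusters, drawn by distance along the chromosome in kb (x axis) from the start site of Kcnq1ot1, Peg3 or Meg3 or from the lower end of Peg10, with fold enrichment (y axis) in repeat 1 drawn up and repeat 2 drawn down, and the listed genes as bars below. The tallest lines stand inside Kcnq1 (166-fold and 95.3-fold), on both sides of the Peg3 start site, between Rtl1 and Dio3 (110-fold and 82.8-fold), and inside Sgce (46.4-fold and 49.5-fold).

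In the Peg10 cluster on chromosome 6 the strongest sites were inside Sgce, which encodes epsilon-sarcoglycan. They lay at chr6:4684707-4685817 (46.4-fold and 49.5-fold, 131 and 203 tags) and chr6:4677297-4678349 (43.0-fold and 47.9-fold, 129 and 210 tags), and were higher in repeat 2, unlike most shared peaks. Peg10, a retrotransposon-derived gene essential in the placenta, shares a promoter region with Sgce. Of its 2 shared peaks one was inside Peg10, 2.17 kb from the end that faces Sgce (12.6-fold and 10.2-fold), and the other inside Sgce (12.9-fold and 21.8-fold).

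The Snrpn cluster on chromosome 7, the mouse counterpart of the Prader-Willi and Angelman region, had few sites. Windows of its 6 genes held 10.3 shared peaks per Mb, against 27.4 in windows of protein-coding genes of chromosome 7 and 20.8 in those of all listed genes there. The whole interval of 3.26 Mb held 8, or 2.46 per Mb, against 19.4 per Mb over chromosome 7. Snrpn, a splicing protein gene with several start sites, had 3 shared peaks, the strongest inside the gene, 173 kb from an end (chr7:60155154-60156264, 41.1-fold and 10.99-fold, 114 and 53 tags). Its ratio of repeat 1 to repeat 2, 3.74, was the highest of the 90 regions. Ube3a, a ubiquitin ligase gene, had 1 weak peak inside (8.21-fold and 7.06-fold). Magel2 had one after its start site (21.7-fold and 10.6-fold) and one near its other end (6.76-fold and 9.42-fold), and Peg12 had 1 at 9.15 kb (9.18-fold and 10.6-fold). Its neighbours Ndn, with no peak, and Mkrn3, with 1 in repeat 1 (9.66-fold, 27 tags), had their nearest shared peaks 27.4 kb and 32.6 kb away. Without these 6 genes the windows of the list held 31.1 shared peaks per Mb, against 26.9 with them and 25.0 at protein-coding genes. No cluster rich in peaks was left out in the same way.

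The growth factor gene Igf2 and the receptor gene Igf2r had no shared peak, while H19 and Airn beside them had 2 each. The interval of H19 and Igf2 held 18 shared peaks per Mb, against 19.4 over chromosome 7 and 27.4 in windows of its protein-coding genes. That of Igf2r and Airn held 10.1. H19, a maternally expressed noncoding RNA gene, had 2 shared peaks outside it, 3.25 kb from an end (chr7:142580957-142581969, 18.7-fold and 16.9-fold, 68 and 87 tags) and 9.98 kb from the other end (21.0-fold and 11.8-fold). Igf2, which encodes a fetal growth factor, had a peak of repeat 2 alone (6.67-fold, 37 tags), and the nearest shared peak was 54.1 kb away. Igf2r, the gene of the receptor that clears Igf2, had 2 peaks of repeat 1 and 1 of repeat 2, none shared. One of these fell 183 bp from the end at its start site (5.56-fold, 24 tags, repeat 1 alone). The overlapping antisense RNA gene Airn had 2 shared peaks, both far from its start site, the stronger at chr17:12852735-12853707 (14.1-fold and 27.9-fold, 84 and 128 tags), where repeat 2 exceeded repeat 1. Grb10, a growth inhibitor gene whose active allele depends on the tissue, had 2 shared peaks of 12.1-fold and 10.2-fold and of 9.18-fold and 7.37-fold.

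Mest, a paternally expressed gene of a hydrolase-like protein, had peaks in each repeat but none shared. Repeat 1 had 3, at 6.76-fold, 6.28-fold and 6.07-fold, 2 of them beside annotated start sites, and repeat 2 had 1 at 4.32-fold. The nearest shared peak was 39.6 kb away (31.9-fold and 15.3-fold). Peaks of a single repeat at imprinted genes numbered 26 and 17, and were weak throughout, with medians of 7.68-fold and 6.28-fold and none above 13.5-fold or 9.03-fold. Others of this kind lay 311 bp from an end of Kcnq1 (9.53-fold, repeat 1) and inside Phlda2 (5.49-fold and 6.28-fold, both repeat 2). Of the member peaks 77.6% in repeat 1 and 84.1% in repeat 2 were shared, against 76.1% and 84.8% of all peaks.

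Of the single genes, Zdbf2 on chromosome 1 had the strongest site. This paternally expressed zinc finger gene, which is switched on from a far upstream start, had a peak at chr1:63246877-63248031 with 93.7-fold and 88.7-fold enrichment and 266 and 366 tags, inside the gene between its start sites. Further sites were at chr1:63190520-63191781 (56.5-fold and 29.6-fold) and chr1:63213495-63214967 (46.4-fold and 35.7-fold), and that at the upstream start site had 17.4-fold and 9.42-fold. At the downstream start site there was a peak of repeat 1 alone (9.18-fold, 21 tags). The strong sites of Zdbf2 thus lay away from its start sites.

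Gnas on chromosome 2, which encodes the stimulatory G protein alpha subunit and several other products from alternative starts, had 8 shared peaks. The best by mean rank was near its far end (chr2:174344836-174346558, 39.2-fold and 29.4-fold, 187 and 121 tags). A peak 9.85 kb outside the other end had 70.3-fold and 20.4-fold, a larger gap between repeats. The peak that overlapped a start site was the weakest of all shared peaks at imprinted genes in repeat 1 (5.31-fold and 5.89-fold, 21 and 31 tags). Nnat, a paternally expressed membrane protein gene that lies within Blcap, had 1 shared peak 9.14 kb past its start site (43.4-fold and 37.7-fold, 134 and 171 tags).

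Commd1 on chromosome 11, the maternally favoured host gene of the imprinted Zrsr1, had 7 shared peaks. The strongest by mean rank was 0.869 kb past a start site (chr11:22971397-22973492, 42.8-fold and 33.8-fold, 232 and 143 tags), and another, higher in repeat 1, lay 1.18 kb outside an end (55.6-fold and 26.1-fold). The first of these also overlapped an end of Zrsr1 and was the strongest by mean rank in the window of that gene. Impact, a translation regulator gene on chromosome 18, had 5, the strongest 4.79 kb outside it (33.8-fold and 16.9-fold, 244 and 214 tags). Plagl1, which encodes a growth-arrest zinc finger protein, had 3 on chromosome 10, the strongest 17.3 kb past its start site (33.8-fold and 21.4-fold). The other 2 were neighbouring repeat 1 peaks matched to the same repeat 2 peak.

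Inpp5f, an inositol phosphatase gene, had 2 shared peaks, one inside it (chr7:128687533-128688689, 40.5-fold and 15.0-fold, 178 and 88 tags) and one 9.60 kb outside (17.4-fold and 7.06-fold). Rasgrf1, a Ras activator gene on chromosome 9, also had 2, one inside (14.5-fold and 11.4-fold) and one 9.03 kb outside (19.5-fold and 6.43-fold). In the Peg13 cluster on chromosome 15, sites were limited to Trappc9, a trafficking complex gene, among the 3 listed genes. It had 7 shared peaks, the strongest by mean rank at chr15:73021140-73023577 (39.2-fold and 16.5-fold, 159 and 79 tags). One 7.34 kb outside an end (22.2-fold and 17.0-fold) slightly exceeded that peak in repeat 2 alone. Another lay 48 bp outside an end (8.26-fold and 12.95-fold). Peg13, a noncoding RNA gene that lies within Trappc9, and the potassium channel gene Kcnk9 had no peak in either repeat. Their nearest shared peaks were 75.7 kb away (8.70-fold and 5.0-fold) and 24.9 kb away (51.7-fold and 42.3-fold).

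A listed gene contained the summit at 68 of the 90 shared peaks, and 22 lay outside, and 13 (14.4%) were within 1 kb of an end. Within 1 kb of a start site of a listed gene lay 9 of the 90, and 13.2% of all shared summits on autosomes were that near to a start site of any gene in the promoter table. A summit within 1 kb of a start site was found at 9 of the 28 genes with promoter entries (32.1%), where 22.5% of the 27025 genes in the promoter table had one. These 9 were Kcnq1ot1, Dio3, Slc22a18, Zdbf2, Magel2, Peg3, Usp29, Gnas and Commd1. The strongest of these sites were the one that Peg3 and Usp29 have in common (73.4-fold and 39.6-fold) and that of Commd1 (42.8-fold and 33.8-fold). Among the other 6 genes the highest values were those at Magel2 (21.7-fold and 10.6-fold).

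At the edge of the 10 kb window, the peaks just inside were those at 9.98 kb from H19 (21.0-fold and 11.8-fold) and 9.85 kb from Gnas (70.3-fold and 20.4-fold). Those just outside were 10.6 kb from Ascl2 (15.3-fold and 7.85-fold) and 10.6 kb from Sgce (7.37-fold and 7.06-fold).

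Grouped by the parental chromosome from which they are known to be expressed, shared peaks were at 18 of 23 paternally expressed genes and 10 of 13 maternally expressed genes, both near the 30 of 38 of the whole list, with a median of 2 peaks per gene in each. Gnas and Grb10, set apart because they differ by transcript or tissue, both had them. The grouping is coarse, since Commd1, which is only maternally favoured, was counted as maternally expressed. Other genes counted as paternally or maternally expressed may also differ by transcript or tissue. The grouping was not checked in these cells, as the lists hold no expression. The groups share clusters and some peaks, and no difference between them was tested.

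Most genes on a list of imprint regulators, which also holds the Tet demethylase genes, had sites. Of 25 such genes 24 matched the gene table and 21 had a shared peak (87.5%, background 64.5%) in the gene or within 10 kb, 2 had peaks of single repeats and 1 had none. The strongest were at the X-inactivation and imprinting factor gene Smchd1 (175-fold and 121-fold), the demethylase genes Tet1 (159-fold and 114-fold) and Tet2 (176-fold and 80.5-fold), and the methyltransferase gene Dnmt3a (78.2-fold and 54.9-fold). Zfp445, which encodes a zinc finger protein that keeps imprints together with Zfp57, had no peak in either repeat. Zfp57 itself, named after its values were seen, had 5 shared peaks, the strongest at 55.1-fold and 51.0-fold, and Trim28, likewise, had 4, the strongest at 36.1-fold and 35.3-fold.

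Further imprinted genes and neighbours of the clusters were counted in the same way. Of 52 listed genes 51 matched, 39 had a shared peak (76.5%, background 64.5%), 3 had only unmatched peaks and 9 had none. The strongest sites were at Ago2, beside Trappc9 (144-fold and 109-fold, 13 shared peaks), Cobl (122-fold and 102-fold) and Ddc (118-fold and 70.8-fold) beside Grb10, and the amino acid transporter gene Slc38a4 (118-fold and 69.5-fold). The 9 genes without a peak were Atp10a, Casd1, Dcn, Htr2a, Ins2, Klf14, Slc22a2, Tfpi2 and Th. Of the 39, 7 had no shared peak other than ones already counted above, among them Rian, with the peak near Rtl1, and Zrsr1, with 4 peaks in the window of Commd1.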

How the data were processed

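The authors called peaks in each repeat separately with MACS 1.4.1, ChIP against the input of that repeat, per the file headers (p threshold 1e-05, tag size 35 bp, at most 2 duplicate tags per position, the smaller library scaled to the larger). The deposited tag count is in whole ChIP tags per peak, unnormalized. The deposited score is a -log10 p-value multiplied by 10, the deposited fold enrichment is a ratio over local background, and the deposited FDR is in percent (highest 0.12%). Besides MACS, CASAVA 1.8.2 is listed in the submitters' processing notes, with no aligner given in the sources used here.

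Those notes name mm9, but peaks on chromosome Y reach 90.8 Mb, and 8.70% to 17.5% of shared summits on each of the 18 autosomes with promoter entries lay within 1 kb of a GRCm38 start site, so GRCm38.p6 RefSeq tables were used.

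Shared peaks overlap by at least 1 bp, with the repeat 1 summit as position and the match of largest overlap in repeat 2. Every listed gene is named. For other lists, the rule named up to 4 genes by mean rank of fold enrichment and those without a peak. Promoters shown were those with the nearest summits. Members and lists were chosen with earlier results of these data known. Code was tested on simulated peaks (Python 3.11.15, pandas 2.3.3). Intervals cover counting error only.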

Additional observations from a re-analysis of the deposited data

How the results depend on the processing

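The count of imprinted genes with a shared peak, 30 of 38, stayed within 1.5 times under each other choice of window, overlap, summit gap, fold, score or repeat. As it cannot exceed 38, no choice could have raised it by 1.5 times, so only its falls could be judged by this limit. The count ran from 25 (window of 1 kb, 10 kb around gene ends only, or at least 10-fold in both repeats) to 36 (window of 50 kb), and the share of protein-coding genes moved with it, from 50.0% to 80.6%. Leaving out a repeat gave 33 to 34 genes and 107 to 116 peaks. Within 10 kb of a start site, chosen after seeing the data, the count was outside the range of 1.5 times, at 17 of 28 genes. Genes without promoter entries could not be counted there. As a share it was 60.7%, against 78.9% by the main rule and 47.7% of genes in the promoter table. The 90 shared peaks became 141 with 50 kb, 48 around gene ends only, 48 with at least 10-fold in both repeats, and 55 with a score of at least 100 in both. Median enrichment at imprinted genes over that of all shared peaks was 0.932 in repeat 1 and 0.917 in repeat 2. It was 1.03 and 1.02 with depth-scaled tags per kb in place of fold, and 1.37 and 1.01 with the strongest peak per gene, so the sign of the departure from 1 depends on the measure. With 50% reciprocal overlap it was 0.937 and 0.901. Ranking by tags kept the strongest peak in 16 of 17 clusters. No paired analysis was possible because each repeat has a single peak list, in which its input is already used. Peaks of 1 repeat alone, 26 and 17, had median tags of 26 and 25, and the effect of depth on them was not tested.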
